A study of Mus musculus with 20 samples.

Results

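The MAP kinase phosphatases are dual-specificity phosphatases, a family named Dusp in the mouse, that switch mitogen-activated protein (MAP) kinases off. The 10 genes described here are Dusp1, Dusp2, Dusp4, Dusp5, Dusp6, Dusp7, Dusp8, Dusp10, Dusp14 and Dusp16. They were chosen by name from the family, not by a rule on their signal, although earlier results of these data were known. They stand among 15102 genes tested on the array. RNA came from 20 brain samples of male C57BL/6J mice in 4 groups of 5. All mice carried a Tet-binding protein driven by the astrocyte promoter GFAP, and the Tat+ mice also carried the HIV-1 Tat transgene under the TRE promoter, so that doxycycline could turn Tat on in astrocytes. Every mouse, Tat- mice included, received doxycycline at 100 mg/kg for 7 days, and methamphetamine (Meth) at 2 mg/kg or saline (Sal) was given for 7 days. The groups are named by genotype and injection: Tat-/Sal and Tat-/Meth without the Tat transgene, Tat+/Sal and Tat+/Meth with it.

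The sources disagree on the material. The sample labels give the left hemisphere, an age of 6 to 7 weeks and collection 24 h after the last injection. The study's methods give the caudate putamen, an age of 3 to 5 months, a 7-day abstinence and a Meth challenge of 1 mg/kg in all mice, with the tissue taken 1 h later. All 9 striatal markers tested, among them Drd1, Penk and Ppp1r1b, were well above background on all 20 arrays, whereas 2 or 3 of the 5 cortical markers tested were so on every array of a group. By the study's methods each group had 5 mice. In whole tissue, fewer cells of a type and less RNA per cell cannot be told apart.

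MAP kinases are activated when a kinase adds phosphate to both a threonine and a tyrosine in their activation loop, and the dual-specificity phosphatases remove both. Several of these phosphatases are themselves made in response to the kinase they inhibit and so close a negative feedback loop. Dusp1, Dusp2, Dusp4 and Dusp5 are inducible enzymes of the nucleus, Dusp6 and Dusp7 act on ERK in the cytoplasm, Dusp8, Dusp10 and Dusp16 act mainly on the stress kinases JNK and p38, and Dusp14 is a small atypical member without the kinase-binding domain of the others. In striatal neurons, dopamine and glutamate receptors drive ERK and with it the immediate early genes, among which Dusp1 is often counted.

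Promoter sequence was matched in RefSeq (build GRCm38.p6) for 9 of the 10 genes, and not for Dusp4. The 250 bases before the transcription start were searched on both strands for the cAMP response element (CRE, TGACGTCA), its shorter core (TGACG, which overlaps every CRE), the AP-1 site (TGANTCA), the TATA box (letters TATAAA) and the CArG box, the binding letters of serum response factor. The CRE was found in Dusp1 and Dusp8, against 1.55% of all 32851 windows of the same length, and the CArG box in Dusp5, against 1.47%. Dusp1, Dusp5 and Dusp8 are shown because they hold these matches, and Dusp14 because its signal is compared with that of Dusp1 further on. Capitals mark the CRE, its core and the CArG box.
Dusp1: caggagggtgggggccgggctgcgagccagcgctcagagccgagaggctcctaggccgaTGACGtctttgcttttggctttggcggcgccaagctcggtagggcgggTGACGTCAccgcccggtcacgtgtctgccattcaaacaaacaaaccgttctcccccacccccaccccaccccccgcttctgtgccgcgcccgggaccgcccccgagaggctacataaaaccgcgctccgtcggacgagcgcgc
Dusp5: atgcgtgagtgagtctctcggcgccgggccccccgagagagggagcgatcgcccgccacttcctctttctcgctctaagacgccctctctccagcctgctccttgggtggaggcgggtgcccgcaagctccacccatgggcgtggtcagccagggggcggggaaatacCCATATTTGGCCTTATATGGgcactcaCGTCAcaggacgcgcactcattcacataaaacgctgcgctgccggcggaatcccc
Dusp8: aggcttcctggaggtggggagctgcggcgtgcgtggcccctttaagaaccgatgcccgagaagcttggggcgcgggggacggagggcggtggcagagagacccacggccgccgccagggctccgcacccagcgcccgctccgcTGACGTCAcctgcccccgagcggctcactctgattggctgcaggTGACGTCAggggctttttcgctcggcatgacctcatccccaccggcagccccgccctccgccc
Dusp14: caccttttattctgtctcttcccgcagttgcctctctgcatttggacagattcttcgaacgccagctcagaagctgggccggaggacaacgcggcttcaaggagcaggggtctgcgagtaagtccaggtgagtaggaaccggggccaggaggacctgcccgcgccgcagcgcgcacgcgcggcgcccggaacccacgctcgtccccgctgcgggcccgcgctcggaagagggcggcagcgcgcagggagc

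The Dusp1 window lies at chr17:26508473-26508722 on the minus strand, and its CRE begins at base 108 of the window, counted from the 5′ end. The Dusp5 window lies at chr19:53528895-53529144 on the plus strand, with adjoining CArG boxes that begin at bases 169 and 179. The Dusp8 window lies at chr7:142095285-142095534 on the minus strand and holds 2 CREs, which begin at bases 144 and 188. The Dusp14 window lies at chr11:84068358-84068607 on the minus strand and holds none of the letters searched. The core was in 17.77% of all windows and, among the members, in Dusp1, Dusp5, Dusp8 and Dusp16. AP-1 and the TATA box were in 6.75% and 12.37% of all windows and in none of the 9 matched members. These matches describe letters and say nothing of binding.

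Signals are given as log2 of the array's processed intensity after each array was set to a common 75th percentile, and a difference between groups is on the same log2 scale. A member passed where the limma test gave a Benjamini-Hochberg adjusted *p* under 0.05 over all 15102 genes. The 20 arrays lay on 3 slides, and slide 1 held all 5 Tat-/Meth arrays and no other group. On slide 1 the bright control corner read 14.66 to 15.06, against 16.80 to 17.42 on the other slides, and the 75th percentile before scaling was 9.64 to 9.79, against 9.75 to 10.33. Every comparison with Tat-/Meth therefore cannot be told apart from a comparison of slide 1 with the other slides. Slide 2 held Tat-/Sal and 3 Tat+/Meth arrays, and slide 3 held Tat+/Sal and the other 2 Tat+/Meth arrays.

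Of the 10 members, 9 had a mean signal of at least 6 in all 4 groups and were well above background on all 20 arrays. Dusp5 reached a mean of 6 in Tat-/Meth alone and so entered the test through that group. This fixed the direction of its differences between Tat-/Meth and the other groups, but not their size. Its probe was well above background on 5 Tat-/Meth arrays, 4 Tat-/Sal arrays, 3 Tat+/Meth arrays and 1 Tat+/Sal array. The array held 12 probes for the 10 genes, with 2 each for Dusp8 and Dusp16, and the brighter probe stood for the gene.

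**Figure D1:**
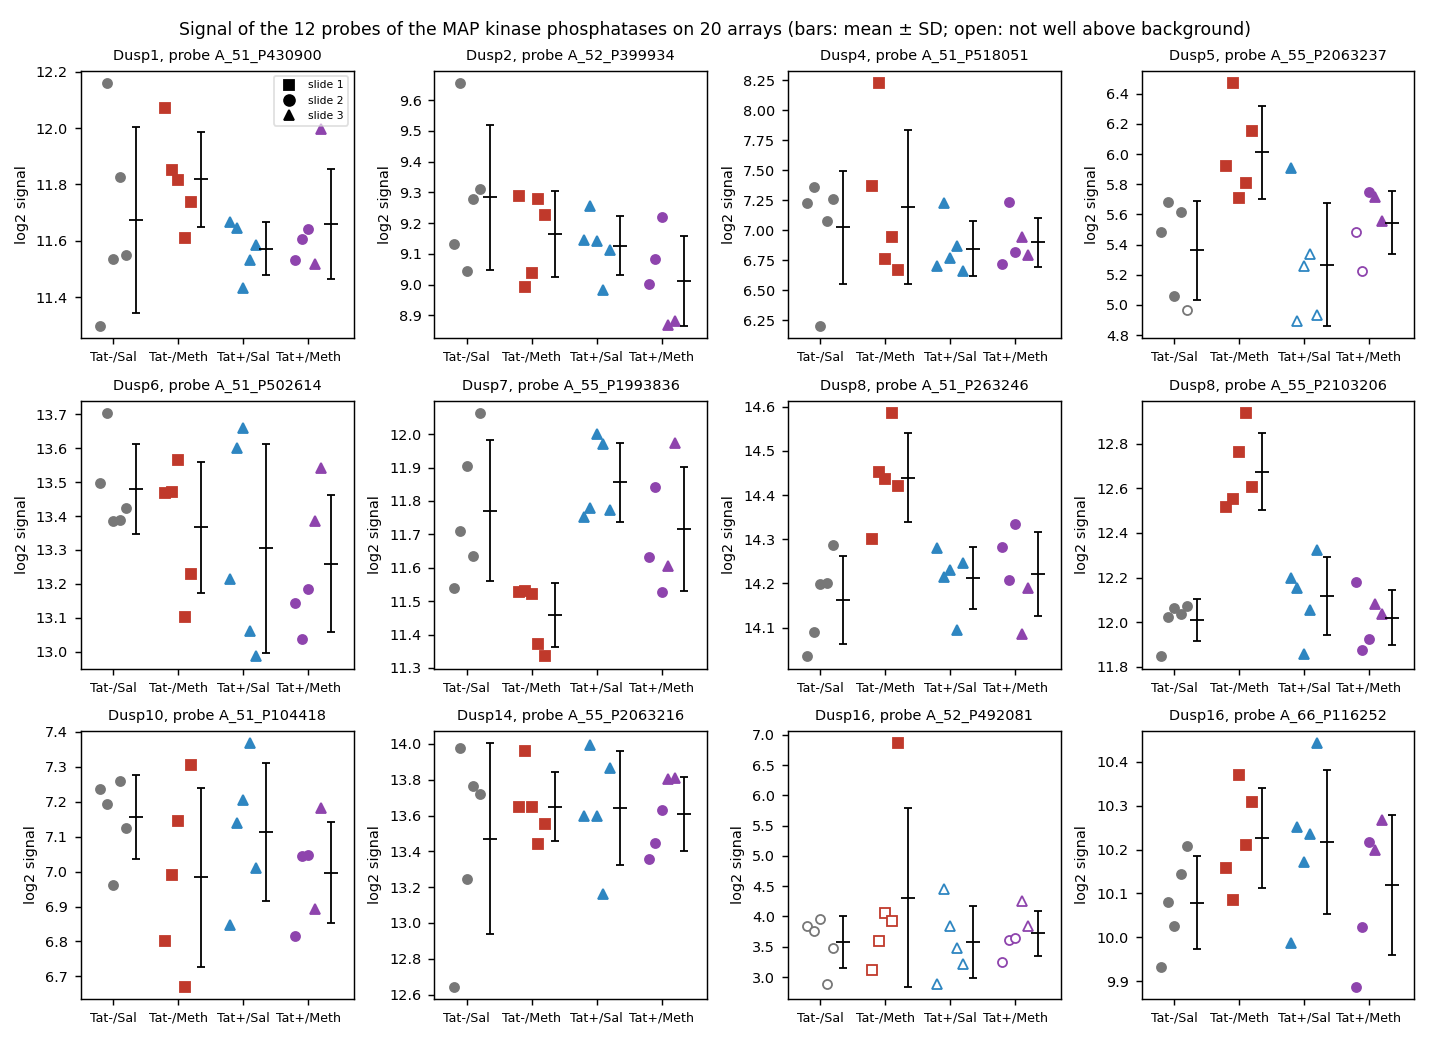
Each panel plots 1 probe of a MAP kinase phosphatase, with the 4 groups on the horizontal axis and the log2 signal on the vertical axis, 1 point per array, the slide as the symbol and the mean ± SD as a bar. The Tat-/Meth arrays lie above all Tat-/Sal arrays for Dusp5 and both Dusp8 probes and below them for Dusp7, and the vertical axes differ between panels.

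The effect of Meth without Tat was asked by Tat-/Meth vs. Tat-/Sal. Dusp5 and Dusp8 were higher and Dusp7 was lower in Tat-/Meth, and these 3 of 10 members passed, whereas 50.2% of all genes passed. By direction, 2 members were higher, beside 35% of all genes, and 1 was lower, beside 15.3%. Dusp5 entered the test through Tat-/Meth, so its higher value there was built in. Without it, 2 of the 9 members passed, Dusp8 as higher and Dusp7 as lower. The 5 arrays of the groups did not overlap for the same 3 members, or 2 of 9 without Dusp5, against 36.2% of all genes. None of the members passed with a change above 2-fold, which 6.85% of all genes did. The median difference of the members was 0.15, beside 0.14 over all genes, and both shares of members lay below the background.

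Dusp8, which acts on JNK and p38, read 14.04, 14.09, 14.20, 14.20 and 14.29 in Tat-/Sal. It read 14.30, 14.45, 14.44, 14.59 and 14.42 in Tat-/Meth. Every Tat-/Meth array lay above every Tat-/Sal array, although the lowest Tat-/Meth value was close to the highest Tat-/Sal value. Dusp8 rose by 0.28 (SE 0.06, 95% interval 0.14 to 0.41, 1.21-fold, limma adjusted *p* = 0.00135). The other Dusp8 probe read 11.85 to 12.07 in Tat-/Sal and 12.52 to 12.94 in Tat-/Meth, again without overlap, and rose by 0.67 (SE 0.09, 1.59-fold, limma adjusted *p* = 1.05e-05 over probes). Both probes moved the same way, and whether the sizes differ was not tested.

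Dusp7, an ERK phosphatase of the cytoplasm, read 11.54, 11.71, 11.90, 11.63 and 12.06 in Tat-/Sal. It read 11.53, 11.53, 11.52, 11.37 and 11.33 in Tat-/Meth. The Tat-/Meth arrays all lay below the Tat-/Sal arrays, by a narrow margin at replicate 1 of Tat-/Sal. Dusp7 fell by 0.31 (SE 0.10, 95% interval -0.52 to -0.11, 1.24-fold, limma adjusted *p* = 0.0138), while the median of all genes was 0.14 in the other direction.

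Dusp5, a nuclear phosphatase specific for ERK, read 5.48, 5.68, 5.06, 5.62 and 4.97 in Tat-/Sal. It read 5.92, 6.47, 5.71, 5.81 and 6.16 in Tat-/Meth, and the groups did not overlap. The difference was 0.65 (SE 0.19, 95% interval 0.25 to 1.05, 1.57-fold, limma adjusted *p* = 0.00904), near the background of the array and for a gene that entered through the higher group.

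Dusp1, the founding inducible phosphatase of this family, read 11.30, 12.16, 11.54, 11.82 and 11.55 in Tat-/Sal. It read 12.07, 11.85, 11.82, 11.61 and 11.74 in Tat-/Meth. The groups overlapped widely, and the Tat-/Sal arrays held both the lowest and the highest value. The difference was 0.14 (SE 0.13, 95% interval -0.13 to 0.42, limma adjusted *p* = 0.37). The other 6 members had differences from -0.17 (Dusp10) to 0.18 (Dusp14), with overlapping groups, and none passed.

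The calls, and for Dusp8 the direction, depended on how the arrays were put on a common scale. With no scaling, the median of all genes was -0.28 in place of 0.14, the share of passing genes that were higher in Tat-/Meth was 1.7% in place of 69.6%, and Dusp8 read -0.14 (limma adjusted *p* = 0.245). The count of members that passed was then 5, beside 48% of all genes, and all 5 were lower: Dusp7 (-0.73, limma adjusted *p* = 5.49e-07), Dusp2 (-0.54), Dusp6 (-0.53), Dusp10 (-0.59) and Dusp16 (-0.27, limma adjusted *p* = 0.0387). Dusp5 was under the signal limit there. With scaling to each array's median, the median of all genes was 0.26, and neither Dusp7 (-0.19, limma adjusted *p* = 0.441) nor Dusp8 (0.40, limma adjusted *p* = 0.0758) passed. Dusp7 was negative and Dusp5 positive under each alternative that gave them a value. Set against the median of all genes, Dusp8 stood at 0.14 and Dusp7 at -0.45 under the 75th percentile. The values were 0.14 and -0.45 with no scaling, and 0.14 and -0.46 under the median. These settings shift all genes of an array by the same amount, so the likeness of these values was built in. With quantile normalization Dusp8 stood at 0.12 and Dusp7 at -0.50, and with normexp background correction at 0.14 and -0.55. Among markers of cell types, beside 35% of all genes that passed as higher, 3 of 6 astrocyte markers did so, with a summed signal of 15.68 to 15.96 in Tat-/Meth against 15.57 to 15.64 in Tat-/Sal, and 2 of 6 vessel markers also did, with 14.90 to 15.21 against 14.56 to 14.86. Of the other lists, 2 of 6 oligodendrocyte markers, 1 of 5 cortical and 1 of 4 red blood cell markers were higher, 2 of 9 striatal markers were lower, 1 of 6 microglial markers was higher and 1 lower, and 0 of 5 choroid plexus markers passed. The part of these cells in the result was not tested.

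**Figure D2:**
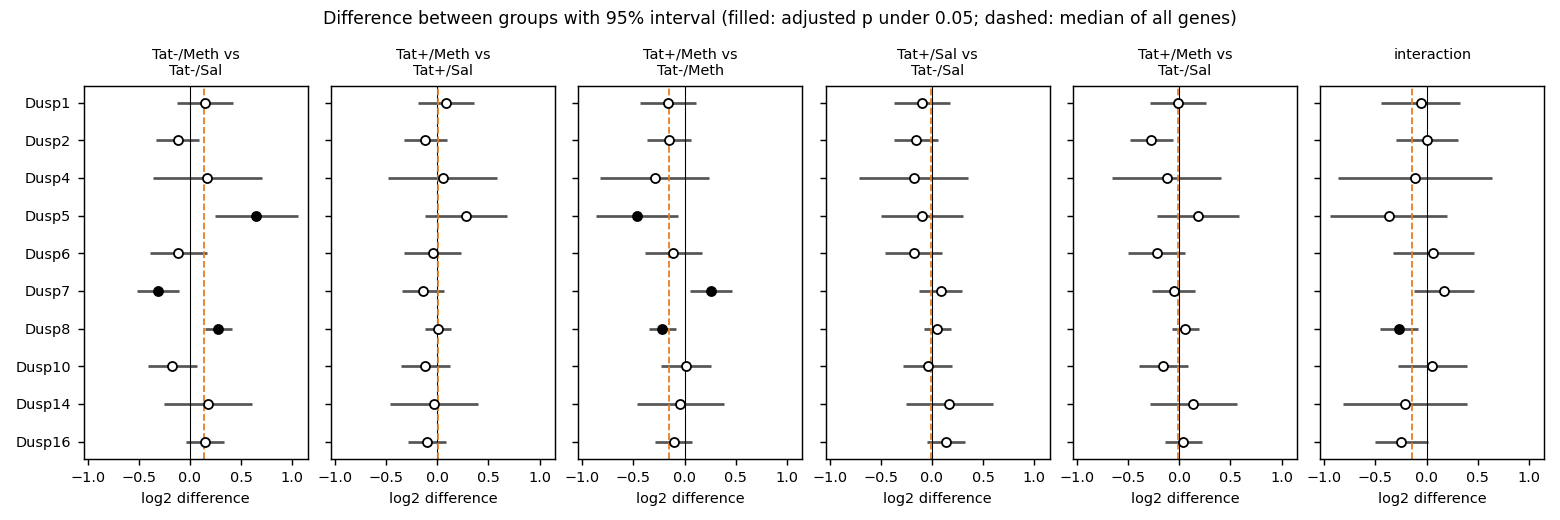
For each of the 6 comparisons, the log2 difference of each member is plotted with its 95% interval, filled where the limma adjusted p was under 0.05, with a dashed line at the median of all genes. Filled points are seen for Dusp5, Dusp7 and Dusp8 in both comparisons with Tat-/Meth and for Dusp8 in the interaction.

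The effect of Tat in Meth-treated mice was asked by Tat+/Meth vs. Tat-/Meth, which uses the same Tat-/Meth arrays. Dusp5 and Dusp8 were lower and Dusp7 was higher in Tat+/Meth, and these 3 of 10 members passed, beside 54.4% of all genes. By direction, 1 member was higher, beside 16% of all genes, and 2 were lower, beside 38.5%. The lower value of Dusp5 was built in, as it entered through Tat-/Meth, and without it 2 of 9 members passed. No member passed above 2-fold, as 7.22% of all genes did. The groups overlapped for all 10 members, whereas 38% of all genes had groups that did not overlap. The members' median difference was -0.13, beside -0.15 over all genes.

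Dusp8 read 14.28, 14.21, 14.33, 14.09 and 14.19 in Tat+/Meth. Of these, 4 lay below all Tat-/Meth arrays and replicate 3 lay just above the lowest of them. Dusp8 fell by 0.22 (SE 0.06, 1.16-fold, limma adjusted *p* = 0.00672). Its other probe read 11.88 to 12.18, below every Tat-/Meth array, and fell by 0.65 (SE 0.09, limma adjusted *p* = 1.13e-05 over probes). With no scaling, the gene's value was 0.12 (limma adjusted *p* = 0.38), with the median of all genes at 0.19. The members that passed there were Dusp7 (0.60) and Dusp10 (0.35, limma adjusted *p* = 0.0211), both higher, beside 37.1% of all genes that passed. Scaling to the median ended the Dusp8 call (-0.38, limma adjusted *p* = 0.0764).

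Dusp7 read 11.63, 11.84, 11.53, 11.60 and 11.97 in Tat+/Meth, and 1 of these arrays lay within the Tat-/Meth range. It rose by 0.26 (SE 0.10, limma adjusted *p* = 0.0349). The call was lost without Tat-/Meth replicate 4 (0.24, limma adjusted *p* = 0.074) or 5 (0.23, limma adjusted *p* = 0.0768) and without Tat+/Meth replicate 2 (0.23, limma adjusted *p* = 0.0823) or 5 (0.19, limma adjusted *p* = 0.104). Scaling to the median also ended it (0.10, limma adjusted *p* = 0.677).

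Dusp5 read 5.48, 5.23, 5.75, 5.72 and 5.56 in Tat+/Meth, of which 2 lay within the Tat-/Meth range. It fell by 0.47 (SE 0.19, limma adjusted *p* = 0.0479), with the same limit at the background. Leaving out Tat-/Meth replicate 1, Tat+/Meth replicate 1, 2 or 5 or Tat+/Sal replicate 3 or 4 ended the call, with values from -0.49 to -0.39 and limma adjusted *p* from 0.054 to 0.119. Of the fits with an array left out, 15 tested Dusp5, which kept the call in 9. In the untested fits it was under the signal limit. Of the 10 other alternatives that tested Dusp5, 3 ended the call, and the fit over probes gave a limma adjusted *p* of 0.0509. Dusp1 read 11.53, 11.61, 11.64, 11.52 and 12.00 in Tat+/Meth, all within or just below the Tat-/Meth range, and its difference was -0.16 (SE 0.13, limma adjusted *p* = 0.318).

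Whether the response to Meth differed with Tat was asked by the interaction, the Meth difference with Tat minus the Meth difference without it. Dusp8 alone of the 10 members passed, beside 36% of all genes, and it was lower, as were 23.6% of all genes. No member passed above 2-fold, as 7.44% of all genes did. Its Meth difference was 0.28 in Tat- mice and 0.01 in Tat+ mice, which gave an interaction of -0.27 (SE 0.09, 95% interval -0.45 to -0.08, limma adjusted *p* = 0.0241). The other Dusp8 probe gave -0.76 (SE 0.13, limma adjusted *p* = 0.000174 over probes). With scaling to the median the gene's interaction was -0.50 but did not pass (limma adjusted *p* = 0.133). With no scaling it was 0.22 (limma adjusted *p* = 0.229) and the median of all genes 0.35. There 4 other members passed, beside 39.4% of all genes, and all 4 were higher: Dusp2 (0.49, limma adjusted *p* = 0.0395), Dusp6 (0.55), Dusp7 (0.66) and Dusp10 (0.54). Dusp16, another JNK phosphatase, gave -0.25 (SE 0.12, limma adjusted *p* = 0.128), and Dusp1 gave -0.06 (SE 0.18, limma adjusted *p* = 0.836). The slide 1 arrays enter this term too.

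The comparisons without Tat-/Meth share no arrays with slide 1. Meth given together with Tat was read from Tat+/Meth vs. Tat+/Sal, where 0 of 10 members passed, and limma called 0% of all genes (1838 of 15102 had an unadjusted *p* under 0.05, none of them a member). The groups did not overlap for 0 members, beside 2.28% of all genes. Dusp5 had the highest difference of the members, 0.28 (SE 0.19, limma adjusted *p* = 0.571), and Dusp7 the lowest, -0.14 (SE 0.10, limma adjusted *p* = 0.587). Dusp1 read 11.67, 11.65, 11.43, 11.53 and 11.59 in Tat+/Sal, and its difference was 0.09 (SE 0.13, 95% interval -0.19 to 0.36, limma adjusted *p* = 0.826). Dusp8 differed by 0.01 (95% interval -0.12 to 0.14). The lowest end of the 10 intervals was -0.48, for Dusp4, and the highest was 0.68, for Dusp5. Changes of those sizes thus lay within the intervals of those genes, whereas the interval of Dusp8 was narrower. Within slide 3, the members' differences ran from -0.25 to 0.37 and the smallest limma adjusted *p* was 0.998.

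Tat in saline-treated mice was read from Tat+/Sal vs. Tat-/Sal, where 0 of 10 members passed, beside 1.42% of all genes (214 genes), and none had an unadjusted *p* under 0.05. The groups did not overlap for 0 members, beside 4.85% of all genes. The differences ran from -0.18 (Dusp4) to 0.17 (Dusp14), and Dusp1 had -0.10 (SE 0.13, limma adjusted *p* = 0.703). Dusp1 values in Tat+/Sal all lay within the range of Tat-/Sal. The slides of these groups differed entirely, and with slide as a block the differences ran from -0.52 to 0.19, with a smallest limma adjusted *p* of 0.891. The share of all genes depended on single arrays and on the slide. It was 0% with slide as a block and 15.4% with slide as a random block, whose estimated correlation within slides was negative (-0.06). With 1 array left out, the share was 0% to 3.62%. The lowest was reached when replicate 1 of Tat-/Sal or replicate 5 of Tat+/Sal was left out, and the highest when replicate 3 of Tat-/Sal was.

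Tat and Meth together were read from Tat+/Meth vs. Tat-/Sal, where 0 of 10 members passed, and limma called 0% of all genes (1177 had an unadjusted *p* under 0.05). The groups did not overlap for 0 members, beside 1.68% of all genes. Dusp2, a nuclear phosphatase known from activated immune cells, was the only member with an unadjusted *p* under 0.05. It read 9.13, 9.66, 9.04, 9.28 and 9.31 in Tat-/Sal and 8.87 to 9.22 in Tat+/Meth, with overlap between 9.04 and 9.22. Its difference was -0.27 (SE 0.10, 95% interval -0.48 to -0.06, limma adjusted *p* = 0.64). Dusp1 had -0.01 (SE 0.13, limma adjusted *p* = 0.981). Within slide 2, the differences of the members ran from -0.36 to 0.12 and the smallest limma adjusted *p* was 0.533.

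In the fit of all 20 arrays set to the 75th percentile, with no block, the remaining members passed in no comparison. Dusp6, Dusp10 and Dusp16 passed with no scaling in comparisons with Tat-/Meth, as given above. With the replicate number as a block, 4 members passed in Tat-/Meth vs. Tat-/Sal, beside 52.6% of all genes. Dusp5, Dusp7 and Dusp8 were among them, and Dusp5 again entered through Tat-/Meth. Dusp4, an inducible nuclear phosphatase for ERK, JNK and p38, had means of 7.02 ± 0.47 (SD, n = 5) in Tat-/Sal, 7.19 ± 0.64 in Tat-/Meth, 6.85 ± 0.23 in Tat+/Sal and 6.90 ± 0.20 in Tat+/Meth. Dusp6, the main ERK phosphatase of the cytoplasm, had means of 13.48 ± 0.13, 13.37 ± 0.19, 13.30 ± 0.31 and 13.26 ± 0.20 in the same order. The arrays of neighbouring groups overlapped for both genes.

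Dusp10, which acts on JNK and p38, had means of 7.16 ± 0.12, 6.98 ± 0.26, 7.11 ± 0.20 and 7.00 ± 0.14 (SD, n = 5) in that order of groups. Dusp16, a JNK phosphatase that shuttles between nucleus and cytoplasm, had 10.08 ± 0.11, 10.23 ± 0.11, 10.22 ± 0.16 and 10.12 ± 0.16. Its other probe was not well above background on 19 of the 20 arrays, and read 6.86 on Tat-/Meth replicate 5 against 3.12 to 4.06 on the other Tat-/Meth arrays. Dusp14 had 13.47 ± 0.53, 13.65 ± 0.19, 13.64 ± 0.32 and 13.61 ± 0.21, and its spread within groups was larger than that of 97.6% of the 500 genes nearest to it in signal. Such shares were 91% for Dusp6, 88.8% for Dusp1 and 9.8% for Dusp5.

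Whether members varied together between mice of a group was asked on deviations of each array from the mean of its group on its slide. Of 45 pairs of members, 0 passed (permutation test within groups and slides, two-sided, Benjamini-Hochberg over the 45 pairs), 1 had an unadjusted *p* under 0.05, and 33 had a positive Pearson *r*, with a median of 0.12. The pair was Dusp1 and Dusp14 (*r* = 0.66, permutation *p* = 0.0172, adjusted *p* = 0.727; Spearman rho = 0.63, permutation *p* = 0.0104, adjusted *p* = 0.47). Without replicates 1 and 2 of Tat-/Sal, the 2 arrays farthest from the median of Dusp1, *r* was 0.34, so the relation rested largely on them.

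The members were then set against an index of 27 immediate early genes, the mean deviation of Fos, Egr1, Arc, Npas4, Nr4a1 and others, with no member in it. This comparison was added after the data had been seen. Dusp1 and Dusp14 rose and fell with the index across the 20 arrays and passed among the 10 relations computed. The share of all genes that would pass against the index was not computed, so whether the relation is particular to them cannot be said. For Dusp1, *r* was 0.66 (permutation *p* = 0.00185, adjusted *p* = 0.0185) and Spearman rho 0.69 (permutation *p* = 0.00352, adjusted *p* = 0.0352). For Dusp14, *r* was 0.71 (permutation *p* = 0.00744, adjusted *p* = 0.0372) and rho 0.68 (permutation *p* = 0.00926, adjusted *p* = 0.0463). Without Tat-/Sal replicate 2 and Tat+/Sal replicate 4, the 2 arrays farthest from the median of the index, *r* was 0.64 for Dusp1 and 0.58 for Dusp14.

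Each group on each slide had 5 arrays or fewer, too few for an *r* of its own. Of the groups, Tat-/Sal held both the lowest and the highest deviation of Dusp1 and of Dusp14, and without its replicate 1, 2, 4 or 5 the number of members that passed was 0 in place of 2. It was 1 without Tat-/Sal replicate 3, Tat-/Meth replicate 4, Tat+/Meth replicate 3 or Tat+/Sal replicate 2, 3 or 4. Dusp2 (*r* = 0.54, permutation adjusted *p* = 0.135), Dusp6 (*r* = 0.49, permutation adjusted *p* = 0.187) and the other 6 members (*r* from -0.21 to 0.43) did not pass.

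**Figure D3:**
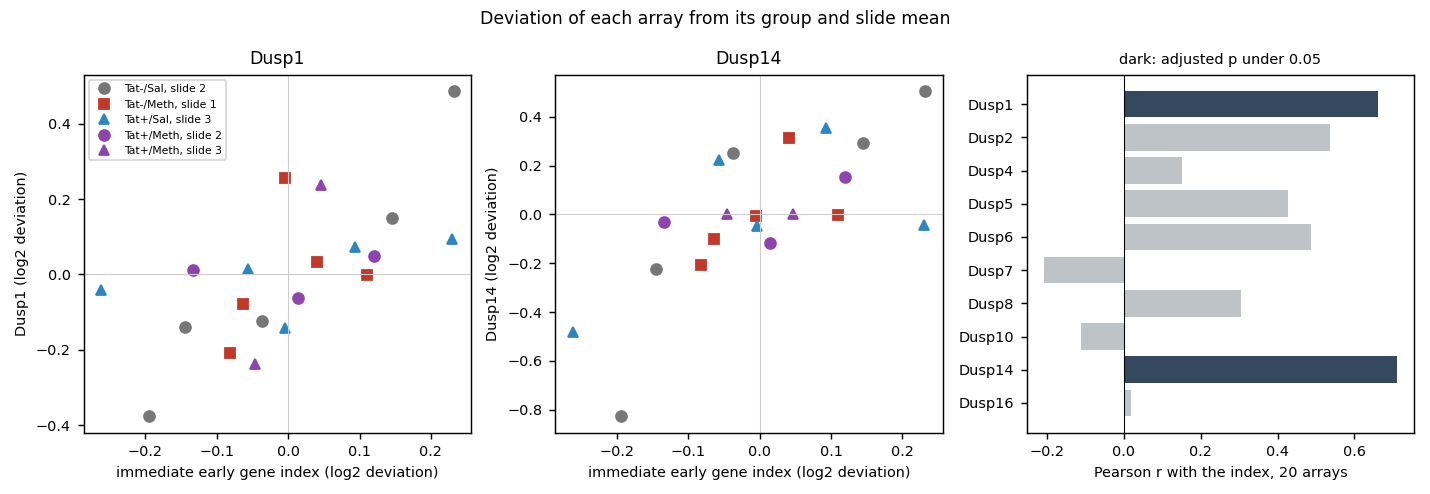
The first panels plot the deviation of Dusp1 and Dusp14 against the immediate early gene index, both in log2 units, with 1 point per array, and the last panel gives Pearson r with the index for each member as bars from 0, dark where the adjusted p was under 0.05. The cloud rises from lower left to upper right for both genes, and the Tat-/Sal arrays reach its ends.

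The kinases and other regulators of the same pathway were summarised for comparison in Tat-/Meth vs. Tat-/Sal, where slide 1 limits them in the same way and where 35% of all genes were higher and 15.3% lower, with a median of 0.14. Of 14 other dual-specificity phosphatases tested, 5 were higher and 1 was lower, with a median of 0.23; Dusp12 rose by 0.42 (limma adjusted *p* = 0.000164). Of 12 MAP kinases, 4 were higher and 0 lower, with a median of 0.04, and Mapk8, which encodes JNK1, the kinase that Dusp8 acts on, rose by 0.37 (SE 0.07, limma adjusted *p* = 0.000405). Of 18 upstream kinases, 3 were higher and 3 lower, with a median of 0.02, among them Map2k2, an ERK-activating kinase, at 0.27 (limma adjusted *p* = 0.00115).

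Of 14 other feedback inhibitors of the ERK pathway, 4 were higher and 1 was lower. The lower was Spry4, a Sprouty protein that dampens receptor signalling to ERK, which fell by 1.18 (SE 0.13, 2.26-fold, limma adjusted *p* = 7.72e-07). Ptprr, a tyrosine phosphatase of ERK, rose by 0.41 (limma adjusted *p* = 0.000206). Of 27 immediate early genes, 9 were higher and 1 was lower, with a median of 0.23, with Gadd45g, which had the smallest p, at 0.47 (limma adjusted *p* = 4.07e-05) and Btg2 at 0.845 (limma adjusted *p* = 0.000457). None of these lists except the ERK inhibitors held a gene that passed above 2-fold.

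In Tat+/Meth vs. Tat-/Meth, which shares the Tat-/Meth arrays and where 16% of all genes were higher and 38.5% lower, 1 of the other dual-specificity phosphatases was higher and 5 lower, 1 MAP kinase higher and 4 lower, 0 upstream kinases higher and 5 lower, 2 ERK inhibitors higher and 6 lower, and 2 immediate early genes higher and 6 lower. Spry4 rose by 1.02 (2.03-fold, limma adjusted *p* = 3.38e-06). In Tat+/Sal vs. Tat-/Sal, 3 genes of the kinase lists passed. Mapk3, which encodes ERK1, rose by 0.34 (SE 0.06, limma adjusted *p* = 0.0185), Map3k11 by 0.34 (SE 0.07, limma adjusted *p* = 0.03) and Map2k2 by 0.27 (SE 0.06, limma adjusted *p* = 0.0386), while no phosphatase, ERK inhibitor or immediate early gene of these lists did. These groups lay on different slides, and all 3 calls were lost with slide as a block, with normexp background correction, and with replicate 1 of Tat-/Sal or replicate 5 of Tat+/Sal left out, where 0 genes passed. With no scaling, with scaling to the median and without replicate 2 of Tat-/Sal, 0 genes passed as higher, so these rises did not pass there either. In Tat+/Meth vs. Tat+/Sal, no gene of any list passed. Of the 27 immediate early genes, 21 had a positive difference, with a median of 0.142 beside 0.003 over all genes. Atf3 differed by 1.13 (SE 0.28, limma adjusted *p* = 0.218) and Fos by 0.72 (SE 0.20, limma adjusted *p* = 0.219).

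**Figure D4:**
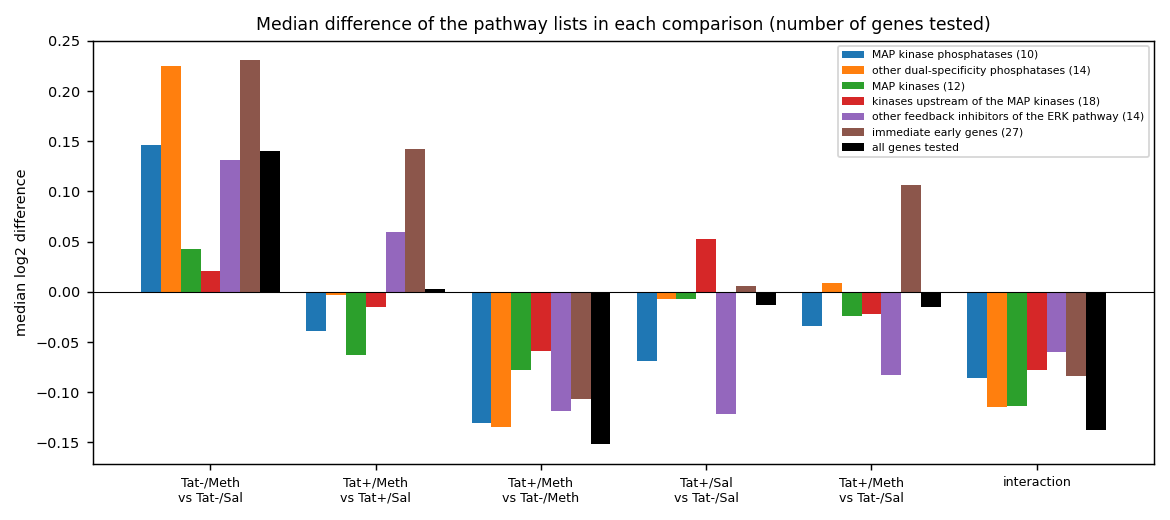
Bars from 0 give the median log2 difference of each list in each comparison, with the number of genes tested in the legend and all genes in black. The medians of the MAP kinase phosphatases and of all genes lie close together in both comparisons with Tat-/Meth, at 0.15 and 0.14 and at -0.13 and -0.15.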

How the data were processed

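Gene expression was measured in 20 brain samples on one-colour Agilent arrays, labelled with Cy3 per the labels, whereas the study's methods name Cy5 and GenePix. The deposited scanner files hold 62976 spots per array. Per the file headers, the signal used is the processed intensity of Agilent Feature Extraction 10.7.3.1, already corrected for background. The series matrix that the authors deposited holds the background-subtracted signal on a linear scale, with a constant added that differed between arrays (9.2 to 27.4). With that constant removed, 99.8% to 100% of values of probes with a single spot lay within 1%, or 0.1, of the scanner values. The column medians of the series matrix were 69.8 to 145. The depth of an array has no count, and 5 arrays per group limit the precision. Outlier spots (4278 over all arrays) were left out, spots of a probe were averaged as log2, and each array was set to a common 75th percentile. The brightest of a gene's probes stood for it, and genes with a group mean of at least 6 were tested (15102). Gene symbols were assigned from RefSeq through the accession that the array files give for each probe, and probes that did not match a single symbol were left out. Differences came from limma 3.58.1 in R 4.3.3 on all 20 arrays with 4 group means, with Benjamini-Hochberg adjustment; the steps were tested on simulated data. Correlations used 100000 permutations within groups and slides.

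The alternatives were quantile, median and no scaling, normexp background correction, the series matrix, other filters, the mean of probes, slide and replicate blocks, the methods' t-test and leaving out each array. Members and lists were chosen with earlier results of these data known. Every member was named with its levels; full statistics were given where a member passed or its groups did not overlap, for Dusp1 throughout, and for at most 3 genes of a list, those with the smallest p. Dusp2 in Tat+/Meth vs. Tat-/Sal was named after its values were seen. The fit of the 15 arrays of slides 2 and 3 alone and the immediate early gene index were added after seeing the data. Promoters were read from RefSeq, build GRCm38.p6. Marker lists for striatum, cortex, choroid plexus, astrocytes, oligodendrocytes, microglia, vessels and red blood cells were tested as the other lists were.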

Additional observations from a re-analysis of the deposited data

Results flagged for a closer look

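The interaction for Dusp8 passed the test of the difference between the Meth effects in Tat+ and Tat- mice, at -0.269 (limma adjusted *p* = 0.0241), and Tat-/Meth lay on a slide of its own. In 4 of 48 sets of 5 arrays for 1 probe in 1 group, 1 array stood apart from the rest, and chance flags about 1 in 20 groups. Dusp1 read 12.00 on Tat+/Meth replicate 5, against 11.52 to 11.64 on the other Tat+/Meth arrays. Dusp4 read 6.20 on Tat-/Sal replicate 3, against 7.07 to 7.36. The dimmer Dusp8 probe read 11.85 on Tat-/Sal replicate 1, against 12.02 to 12.07. The dimmer Dusp16 probe read 6.86 on Tat-/Meth replicate 5, against 3.12 to 4.06, and was well above background on that array only.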

How the results depend on the processing

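The counts of members passing were 0 under all alternatives in the 3 comparisons without Tat-/Meth, including slide as a block, within slides and the 15 arrays of slides 2 and 3 alone. In Tat-/Meth vs. Tat-/Sal the count was 3, 5 with no scaling (all lower, Dusp7 among them and Dusp8 not), 1 with scaling to the median and 2 to 3 with an array left out. The share of all genes that passed was 50.2%, 48% with no scaling and 28.1% with scaling to the median. In Tat+/Meth vs. Tat-/Meth the count was 3, 1 with scaling to the median, 1 with no filter on low values and 1 to 3 with an array left out (1 without Tat-/Meth replicate 5 or Tat+/Meth replicate 2 or 5). The share of all genes was 54.4%, 39.3% with scaling to the median and 39.4% with no filter on low values. For the interaction the count was 1, 4 with no scaling (all higher, without Dusp8), 0 with scaling to the median, 2 with normexp, 2 with slide as a random block, 2 with the replicate block and 1 to 1 with an array left out. The share of all genes was 36%, 39.4% with no scaling, 17% with scaling to the median and 32.8% with normexp. It was 46.9% with slide as a random block and 38.4% with the replicate block. The replicate block gave 4 and 2 in the comparisons with Tat-/Meth; same-numbered arrays did not deviate together (*r* from -0.18 to 0.36, median 0.04), and 8 of 20 arrays correlated best with their own number. With no scaling, 94.2% of passing genes were higher in Tat+/Meth vs. Tat-/Meth in place of 29.3%, and 99.2% in the interaction in place of 34.6%. No scaling turned Dusp8 in the Meth comparison without Tat (-0.144), in the Tat comparison under Meth (0.12) and in the interaction (0.217), and Dusp1 in the same (-0.277, 0.18 and 0.429). This setting shifts all genes together: against the median of all genes in the first of these, Dusp8 stood at 0.137 with and 0.141 without scaling, and Dusp1 at 0.005 and 0.009. Dusp1, which passed nowhere, also turned in Tat+/Meth vs. Tat+/Sal with scaling to the median (-0.021) and in the interaction with quantile normalization (0.004) or without Tat-/Meth replicate 1 (0.007) or Tat-/Sal replicate 1 (0.037). It turned in Tat+/Sal vs. Tat-/Sal without Tat-/Sal replicate 2 (0.021; range with an array left out -0.195 to 0.021), and in Tat+/Meth vs. Tat-/Sal without Tat-/Sal replicate 2 (0.108) or 4 (0.024) or Tat+/Meth replicate 1 (0.018) or 4 (0.022; range -0.107 to 0.108). In the interaction the range was -0.179 to 0.037. Dusp5 dropped below the signal limit with quantile normalization, with no scaling and in 5 of the 20 fits with an array left out. The methods' t-test gave 3 in both comparisons with Tat-/Meth and 0 in the others, with and without adjustment. No pair of members passed under any alternative. The count of members passing with the immediate early gene index was 2, 6 with no scaling and 0 to 3 with an array left out. The causes were not tested. Probes near background, such as that of Dusp5, limit what can be read.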
